A study of Mus musculus with 14 samples.

Results

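The 9 genes described here encode the core transcription factors of the hepatocyte: Hnf4a, Cebpa, Cebpb, Foxa1, Foxa2, Foxa3, Onecut1, Onecut2 and Prox1. They were chosen by gene symbol, as the HNF, C/EBP, FOXA, ONECUT and PROX1 factors of hepatocyte identity. No measured value entered that rule, but earlier results of these data were known when the factors were chosen. Each of the 9 genes was represented by 1 probe set, so that 9 of 19505 named genes and 9 of 22206 tested probe sets are described. The RNA came from wild-type adult C57Bl6 males and was read on 14 Clariom S arrays. Total liver gave 4 arrays from mice fed CDAA, a choline-deficient amino acid diet supplemented with cholesterol, glucose and fructose, and 4 arrays from mice fed CSAA, the control diet. Primary hepatocytes, freed by collagenase perfusion, gave 3 arrays on CDAA and 3 arrays on CSAA. Every mouse was fed for 2 weeks. Total liver was the caudal lobe after perfusion through the heart with saline, and each tissue had its own RNA extraction kit. The arrays are independent preparations per the series' design text, which does not say how many mice a preparation held, and the p-values measure the spread between these preparations.

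HNF4A, a nuclear receptor, and the C/EBP factors, which bind DNA as leucine zipper dimers, are needed for the genes of bile acid, lipoprotein, glucose and urea metabolism that mark the adult hepatocyte. The FOXA factors are winged helix proteins that open chromatin at liver enhancers, and ONECUT and PROX1 proteins are homeodomain factors that act from early liver development onwards. These factors bind the promoters and enhancers of each other's genes, which is known as the cross-regulatory network of the liver.

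Values are log2 intensities, so that a difference of 1 is a change by a factor of 2. Medians over the tested probe sets lay between 5.85 and 6.06 on the total liver arrays and between 4.68 and 4.89 on the hepatocyte arrays. The tissues look to have been normalized as separate sets, and levels are compared only within a tissue. A gene counted as under background in a group if no array of the group exceeded the 95th percentile of that array's negative control probe sets. This percentile was 9.96 to 10.23 on the total liver arrays and 6.84 to 8.01 on the hepatocyte arrays. Hepatocyte arrays on CDAA correlated with each other at 0.952 to 0.982 across probe sets, and those on CSAA at 0.978 to 0.983. Total liver arrays of a group correlated at 0.990 to 0.995.

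The hepatocyte arrays on CDAA carried RNA of other cell types. The mean level of 9 macrophage markers was 11.38 to 12.79 on the hepatocyte arrays on CDAA, against 5.07 to 5.54 on those on CSAA. On CDAA 0 of these 9 markers were under background on all arrays, against 9 of 9 on CSAA. The mean level of 7 stellate cell markers was 9.05 to 10.53 on CDAA and 5.38 to 6.07 on CSAA, and that of 10 endothelial markers was 7.62 to 8.59 on CDAA and 5.40 to 5.68 on CSAA. By limma, 9 of 9 macrophage, 7 of 7 stellate cell and 7 of 10 endothelial markers rose in hepatocytes. There 11.0% of all tested probe sets rose and 18.7% passed in either direction. The rises of Itgam, Des, Pdgfrb, Stab2 and Flt4 did not remain with groups under background set at background. The 16 hepatocyte function genes, from albumin to arginase, had a lower mean level, at 17.50 to 17.89 on CDAA, against 18.29 to 18.54 on CSAA. The fitted difference was below 0 for 14 of 16 (median -0.65), and 5 of 16 fell (Cyp2f2, F2, Cps1, Serpinc1 and Fgb, the last named after its value was seen). Alb and Apoa1 had the same values on the hepatocyte CSAA arrays, 19.86, 19.79 and 19.80. The top of the scale may thus limit the changes seen for the brightest of these genes. In total liver 7 of 9 macrophage markers rose, where 6.73% of all tested probe sets did. Their mean level was 11.07 to 12.12 on CDAA and 8.71 to 9.31 on CSAA, and 4 of 9 were under background on CSAA. These 4 were Adgre1, Itgam, Cd14 and Marco, and none of their rises remained with groups under background set at background. Csf1r, Cd5l and Lyz2, the other rises in total liver, were above background on both diets. There 2 of 7 stellate cell and 1 of 10 endothelial markers rose, and 0 of 16 hepatocyte function genes passed limma (2 lower at an unadjusted p under 0.05). Of the stellate cell calls, Des was under background on both diets and Pdgfrb on CSAA, and neither rise remained with such groups set at background. Of 8 neutrophil markers 2 rose in total liver, where all 8 were under background on both diets. In hepatocytes 3 rose, where 6 of 8 were under background on CDAA and 8 of 8 on CSAA. None of these rises remained with such groups set at background. Cholangiocyte markers gave 0 calls in either tissue by limma (1 at an unadjusted p under 0.05 in each), and 8 or 9 of 9 were under background in every group. In bulk RNA, fewer hepatocytes and less of an RNA per hepatocyte cannot be told apart. The part of these other cells in the results below was not tested.

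**Figure D1:**
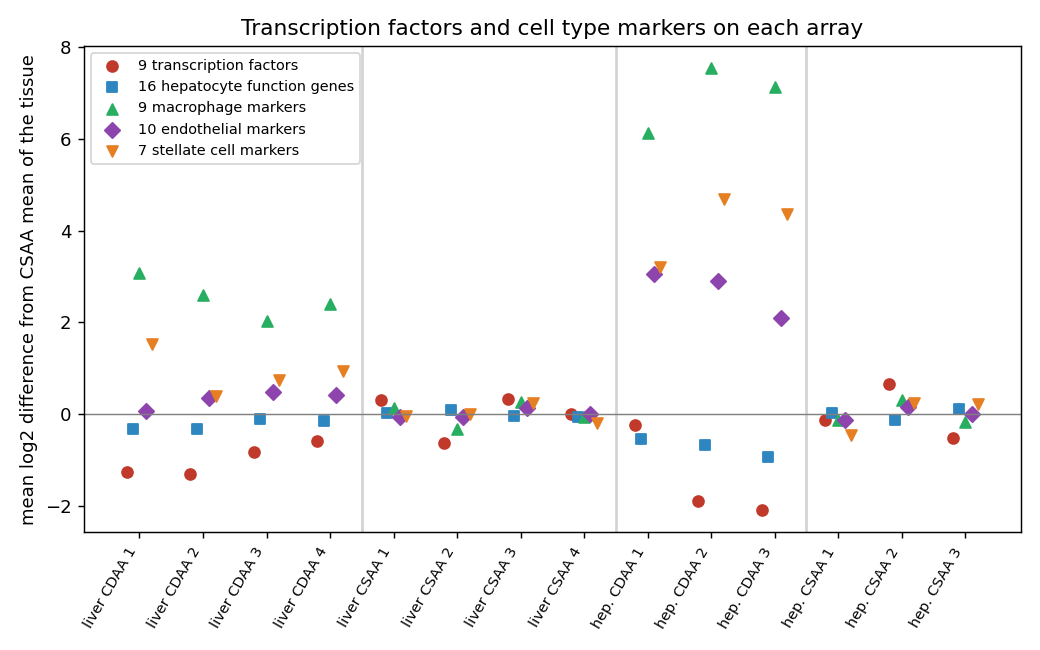
Mean log2 difference of each array from the CSAA mean of its tissue, for the 9 transcription factors and for the markers of hepatocytes, macrophages, endothelial cells and stellate cells; arrays are along the horizontal axis, each symbol is the mean over a list. Macrophage markers stood 6.14 to 7.55 above the CSAA mean on the hepatocyte arrays on CDAA, where the factors stood at -0.24, -1.89 and -2.10.

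In total liver the comparison of CDAA with CSAA gave 1 call among the 9 factors, a fall of Onecut1 (limma, adjusted p = 0.0311). Among all tested probe sets 3.54% fell, and 10.3% changed in either direction. The fitted difference was below 0 for 8 of 9 factors, the exception being Cebpb, though that of Prox1 turned to 0.19 with arrays centred on hepatocyte function genes. The median over the factors was -0.52, against -0.09 over all tested probe sets. At an unadjusted p under 0.05 there were 3 factors, Onecut1, Foxa1 and Cebpa, where 23.6% of all probe sets lay. For Hnf4a, Cebpa and Foxa1 every CDAA array lay under every CSAA array, as it did for 12.0% of all tested probe sets. The fall of Onecut1 missed the threshold without any of 6 of the 8 arrays (adjusted p up to 0.106) and with trend and robust moderation (adjusted p = 0.0625). With the spread estimated from total liver only, 4 factors fell (Hnf4a, Cebpa, Foxa1 and Onecut1), where 9.05% of all probe sets fell.

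In hepatocytes 4 of 9 factors fell on CDAA: Cebpa, Hnf4a, Foxa3 and Prox1. Among all tested probe sets 7.74% fell and 11.0% rose. Fitted differences were below 0 for 8 of 9 factors, again all but Cebpb, though that of Foxa3 turned to 0.26 with arrays centred on hepatocyte function genes. Their median was -1.72, against -0.13 over all tested probe sets, and relative to that overall median the falls were -1.996 for Cebpa, -1.59 for Hnf4a, -1.71 for Prox1 and -0.79 for Foxa3. By limma 6 factors had an unadjusted p under 0.05, where 31.1% of all probe sets did. For Cebpa and Foxa3 every CDAA array lay under every CSAA array, as for 14.2% of all tested probe sets. With that centring only Cebpa was still called lower (-0.95), and Hnf4a, Foxa3 and Prox1 were not. Cebpb was called higher (1.72), where 16548 of all 22206 probe sets were called higher and 240 lower. Tat, Cps1 and Arg1 among the centring genes are also textbook targets of C/EBP factors, and Tat of FOXA factors. The centring is therefore not independent of the factors. The count depended on which arrays were fitted: it was 7 without CDAA array 1, 1 without CDAA array 2, 2 without CDAA array 3 and 2 without CSAA array 1. The calls among all 22206 probe sets moved as well, from 3039 to 5811 with each hepatocyte array left out in turn, against 4158 with all arrays. With the spread estimated from hepatocytes only, 0 of 9 factors passed limma, where 8.48% of all probe sets passed and 1.95% fell, and 5 factors were lower at an unadjusted p under 0.05. Without both CDAA arrays 2 and 3, a choice made after the data were seen that leaves CDAA 1 array taken to vary like the other groups, 0 fell by limma (1 lower at an unadjusted p under 0.05) and Cebpb rose.

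The diet effects of the tissues were set against each other in the same fit, total liver minus hepatocytes. By limma 0 of 9 factors passed, where 2.57% of all tested probe sets did, and 1 factor, Prox1, had an unadjusted p under 0.05, as 11.8% of all probe sets had. The difference of Prox1 was 1.73 ± 0.79 on the log2 scale (adjusted p = 0.405). That of Hnf4a was 1.20 ± 0.60 (adjusted p = 0.464) and that of Cebpa 1.05 ± 0.56 (adjusted p = 0.494). The unadjusted limma p-values of Hnf4a and Cebpa were 0.0656 and 0.0784. For these factors the diet effects fitted in total liver were less negative, by amounts that did not pass the threshold. For Onecut1 the difference ran the other way, -2.01 ± 1.68 (adjusted p = 0.724). Without hepatocyte CDAA array 1 the differences of Hnf4a, Cebpa and Prox1 passed the threshold, at 1.97, 1.74 and 2.53. Among all tested probe sets 2265 passed without that array, against 570 with all arrays.

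**Figure D2:**
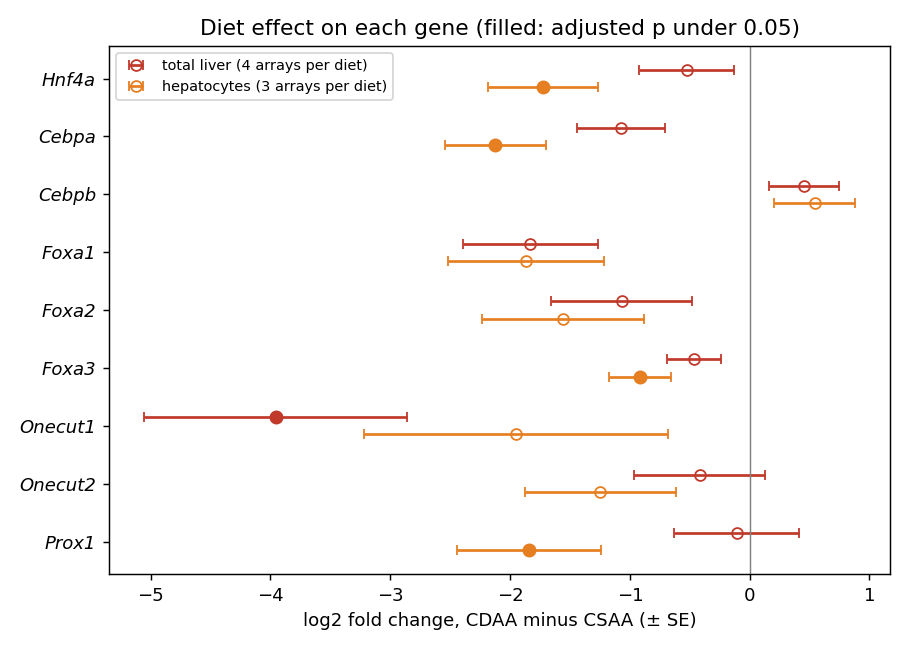
Log2 fold change, CDAA minus CSAA, of each factor with its standard error, in total liver (4 arrays per diet) and in hepatocytes (3 arrays per diet); filled points passed an adjusted p of 0.05. Onecut1 was the filled point of total liver, and Hnf4a, Cebpa, Foxa3 and Prox1 those of hepatocytes, though Foxa3 there turned to 0.26 with arrays centred on hepatocyte function genes and Prox1 in total liver to 0.19.

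The sequences before the start sites of 4 of the factors are shown as examples, since the factors are known to bind each other's promoters: Hnf4a and Cebpa, the pair with the most similar profiles, Onecut1, the call in total liver, and Foxa1, whose profile ran with that of Onecut1. Foxa3 and Prox1, also called in hepatocytes, are counted with the rest below. They are the 250 bases before a transcript start in RefSeq, build GRCm38.p6, read 5′ to 3′ on the gene's strand. Capitals mark matches, on either strand, to the ONECUT core ATTGAT, the FOXA core TGTTTNC, the HNF1 core GTTAAT, the C/EBP motif TTGCNNAA, the HNF4 motif CAAAGNNCA or the TATA box TATAAA. Hnf4a is known to have alternative promoters, of which the downstream (the second window) is the main start in adult liver, and its 1 probe set on these arrays gives no value for each start.
Hnf4a, chr2:163506607-163506856, plus strand: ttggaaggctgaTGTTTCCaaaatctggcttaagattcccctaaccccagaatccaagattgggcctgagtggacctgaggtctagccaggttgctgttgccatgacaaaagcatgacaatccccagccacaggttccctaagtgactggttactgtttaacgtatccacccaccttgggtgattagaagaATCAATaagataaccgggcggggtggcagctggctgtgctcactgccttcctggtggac
Hnf4a, chr2:163546905-163547154, plus strand: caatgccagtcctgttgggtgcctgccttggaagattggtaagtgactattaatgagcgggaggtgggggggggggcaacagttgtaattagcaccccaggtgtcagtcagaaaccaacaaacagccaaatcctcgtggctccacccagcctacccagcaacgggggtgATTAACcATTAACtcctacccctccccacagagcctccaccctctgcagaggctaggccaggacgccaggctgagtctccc
Cebpa, chr7:35119043-35119292, plus strand: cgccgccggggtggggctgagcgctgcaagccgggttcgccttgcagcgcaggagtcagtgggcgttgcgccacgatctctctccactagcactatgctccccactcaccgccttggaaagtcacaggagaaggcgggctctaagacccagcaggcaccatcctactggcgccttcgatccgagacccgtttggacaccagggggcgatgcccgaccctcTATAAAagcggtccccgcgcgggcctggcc
Foxa1, chr12:57546112-57546361, minus strand: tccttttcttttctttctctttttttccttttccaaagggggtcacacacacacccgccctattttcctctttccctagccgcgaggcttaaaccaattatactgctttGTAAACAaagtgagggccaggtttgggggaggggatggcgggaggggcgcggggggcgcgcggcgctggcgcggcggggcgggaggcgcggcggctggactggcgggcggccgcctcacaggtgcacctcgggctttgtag
Onecut1, chr9:74861671-74861920, plus strand: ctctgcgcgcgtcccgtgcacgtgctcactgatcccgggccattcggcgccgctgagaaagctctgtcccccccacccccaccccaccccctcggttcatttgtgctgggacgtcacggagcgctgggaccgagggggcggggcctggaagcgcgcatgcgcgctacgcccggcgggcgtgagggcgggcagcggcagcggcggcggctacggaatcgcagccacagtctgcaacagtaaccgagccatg

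The first Hnf4a window held the ONECUT core, as ATCAAT, 59 bases before the start, and the FOXA core, as TGTTTCC, 238 bases before it. The second Hnf4a window held the HNF1 core on the other strand, as ATTAAC, 81 and 74 bases before the start. The Cebpa window held a TATA box 30 bases before the start, and the Foxa1 window the FOXA core, as GTAAACA, 141 bases before it. None of these letters lay in the Onecut1 window. RefSeq windows were at hand for 8 of the 9 genes, 12 windows in all, and Onecut2 is named only. The FOXA core lay in 3 of the 12 windows and in 17.8% of 32536 windows of all genes, the ONECUT core in 2 of 12 and in 6.60%, the HNF1 core in 2 of 12 and in 6.47%, and the TATA box in 4 of 12 and in 12.3%. The C/EBP motif lay in 0 of 12 windows, against 9.57% of all, and the HNF4 motif in 0 of 12, against 5.51%. Guanine and cytosine made up 50.8% to 81.6% of the 12 windows, and 10 of the 12 lay above the median of 52.4% over all windows. Matches of such short motifs describe the letters and are not binding sites.

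Hnf4a (probe set TC0200002489.mm.2) encodes the nuclear receptor at the centre of the network. Its levels in total liver were 13.75, 14.10, 13.77 and 13.99 on the CDAA arrays, against 14.31, 14.19, 14.51 and 14.71 on the CSAA arrays. The 4 CDAA arrays lay under the 4 CSAA arrays, by a mean of -0.52 ± 0.40 (SE) that did not pass the test (limma, adjusted p = 0.460). In hepatocytes the levels were 13.29, 11.32 and 10.65 on CDAA and 13.72, 13.54 and 13.18 on CSAA. CDAA array 1 lay within the range of the CSAA arrays and CDAA arrays 2 and 3 lay below it. The fitted fall was -1.72 ± 0.46 (adjusted p = 0.0143), a level 3.30-fold lower on CDAA. With arrays centred on hepatocyte function genes it was -0.55 (adjusted p = 0.227). It also missed the threshold without CDAA array 2 (-1.51, adjusted p = 0.0689), CDAA array 3 (-1.17, adjusted p = 0.0598) or CSAA array 1 (-1.60, adjusted p = 0.0520), and was -0.19 without both CDAA arrays 2 and 3.

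Cebpa (probe set TC0700000652.mm.2) encodes C/EBPα, which is needed for glycogen storage and gluconeogenesis in the newborn liver. Total liver levels were 12.30, 12.21, 12.63 and 12.74 on CDAA and 13.33, 13.86, 13.53 and 13.46 on CSAA. The diets did not overlap, and the fitted difference of -1.07 ± 0.36 missed the threshold (adjusted p = 0.0780). It passed with the spread estimated from total liver only (adjusted p = 0.00122). Hepatocyte levels were 12.37, 10.59 and 10.001 on CDAA, against 13.28, 13.13 and 12.93 on CSAA. Each CDAA array was below each CSAA array, and Cebpa fell by 2.12 ± 0.42 on the log2 scale, or 4.36-fold (adjusted p = 0.00186). Among the 4 factors that fell in hepatocytes, Cebpa alone kept the call without each of the 6 arrays in turn, at -2.82 to -1.63; without both CDAA arrays 2 and 3 it was -0.74 (adjusted p = 0.118).

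Cebpb (probe set TC0200002594.mm.2) encodes C/EBPβ, an acute phase factor that macrophages also express. In total liver its levels were 8.06, 8.40, 8.16 and 8.69 on CDAA and 7.72, 7.54, 8.40 and 7.85 on CSAA. All 8 arrays were under background, and the fitted difference was 0.45 ± 0.29 (adjusted p = 0.381). In hepatocytes the levels were 8.15, 6.61 and 6.90 on CDAA and 6.73, 6.57 and 6.73 on CSAA. Only CDAA array 1 lay above background, and it stood apart from the 5 other hepatocyte arrays. The fitted difference was 0.54 ± 0.34 (adjusted p = 0.2997), and with CDAA arrays 2 and 3 left out it was 1.47 (adjusted p = 0.00792). Cebpb was also higher with the arrays centred on hepatocyte function genes (1.72, adjusted p = 0.000595), a scaling that moved the median of all probe sets to 1.05.

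Foxa1 (probe set TC1200001803.mm.2) encodes a pioneer factor shared by endoderm organs. Total liver levels were 6.75, 7.15, 7.33 and 7.16 on CDAA, against 10.40, 7.99, 9.16 and 8.16 on CSAA. The groups did not overlap, but only CSAA array 1 was above background, so no bound on a fold remained. The fitted difference was -1.83 ± 0.57 (adjusted p = 0.0525), and 8 of 17 alternatives called it. In hepatocytes Foxa1 had levels of 5.90, 4.75 and 4.38 on CDAA and 6.63, 8.40 and 5.61 on CSAA. There too a CSAA array, array 2, was the sole array above background, and the fitted difference was -1.87 ± 0.65 (adjusted p = 0.0593).

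Foxa2 (probe set TC0200004802.mm.2) encodes the FOXA factor best known for its link to fasting metabolism and bile acid transport. Its total liver levels were 8.24, 8.50, 8.46 and 8.89 on CDAA and 10.54, 8.66, 10.31 and 8.85 on CSAA. The CSAA arrays fell into a higher pair, arrays 1 and 3, which were above background, and a lower pair at the level of the CDAA arrays. The fitted difference was -1.07 ± 0.59 (adjusted p = 0.294). Hepatocyte levels were 8.13, 6.38 and 5.08 on CDAA, against 7.76, 9.24 and 7.26 on CSAA. Here CDAA array 1 lay among the CSAA arrays, and the difference was -1.56 ± 0.68 (adjusted p = 0.130).

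Foxa3 (probe set TC0700002468.mm.2) encodes a FOXA factor linked in mice to glucose handling during fasting. In total liver all 8 arrays were under background, at 8.98, 8.26, 8.49 and 8.57 on CDAA and 8.63, 8.85, 9.27 and 9.39 on CSAA. The fitted difference was -0.46 ± 0.23 (adjusted p = 0.234). In hepatocytes the levels were 7.51, 6.84 and 7.18 on CDAA and 8.01, 8.35 and 7.92 on CSAA. The 3 CSAA arrays were above background, as was CDAA array 1. Foxa3 fell by 0.92 ± 0.26 on the log2 scale (adjusted p = 0.0218), the smallest of the 4 falls in hepatocytes. No fold is given because CDAA arrays 2 and 3 were under background. The sign of the difference turned, to 0.26, with arrays centred on hepatocyte function genes. The call was lost without CDAA array 2 (-0.75, adjusted p = 0.103) or CSAA array 2 (-0.79, adjusted p = 0.0895).

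Onecut1 (probe set TC0900003330.mm.2) encodes HNF6, which is known to act in biliary development, glucose metabolism and, in rodents, the sex-dependent expression of liver genes. Its levels in total liver were 8.25, 8.56, 9.82 and 11.52 on CDAA, against 14.34, 10.25, 14.93 and 14.46 on CSAA. Of the CSAA arrays 3 lay above every CDAA array, and CSAA array 2 lay between CDAA arrays 3 and 4. CDAA arrays 1, 2 and 3 were under background and CDAA array 4 above it, as were all 4 CSAA arrays. The fitted fall was -3.96 ± 1.10 (adjusted p = 0.0311), and no fold is given because 3 of the 4 CDAA values were under background. Without CSAA array 2 it was -5.04 (adjusted p = 0.00501), and without CDAA array 4 it was -4.62 (adjusted p = 0.0223). Leaving out any other total liver array gave -4.05 to -3.48, and 6 of 6 missed the threshold. In hepatocytes the levels were 8.96, 7.85 and 8.59 on CDAA and 8.97, 13.51 and 8.77 on CSAA. CSAA array 2 stood far above the rest, and the other 5 arrays lay together. The difference there was -1.95 ± 1.27 (adjusted p = 0.322), and -0.40 without CSAA array 2.

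Onecut2 (probe set TC1800000662.mm.2) encodes a close relative of HNF6 that works with it in liver and bile duct development. Total liver levels were 10.06, 9.32, 10.88 and 10.44 on CDAA and 11.20, 9.72, 10.72 and 10.73 on CSAA, near the background percentile. The groups overlapped (-0.42 ± 0.54, adjusted p = 0.690). Hepatocyte levels were 8.80, 6.07 and 6.19 on CDAA, against 7.91, 9.14 and 7.76 on CSAA. CDAA arrays 2 and 3 lay under the CSAA arrays, CDAA array 1 among them, and the difference was -1.25 ± 0.63 (adjusted p = 0.193).

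Prox1 (probe set TC0100003791.mm.2) encodes a homeodomain factor of the hepatoblast that also marks lymphatic endothelium and acts as a corepressor of HNF4A. In total liver the levels were 13.05, 12.44, 13.78 and 13.39 on CDAA and 13.12, 13.99, 12.85 and 13.12 on CSAA. The groups overlapped throughout, with a difference of -0.11 ± 0.52 (adjusted p = 0.928) whose sign turned to 0.19 with arrays centred on hepatocyte function genes. Hepatocyte levels were 11.41, 9.23 and 8.78 on CDAA and 12.55, 10.60 and 11.81 on CSAA. CDAA array 1 lay within the CSAA range. Prox1 fell by 1.84 ± 0.60 on the log2 scale, or 3.59-fold (adjusted p = 0.0433), and 4 of the 6 hepatocyte arrays, when left out, took the call away (adjusted p up to 0.170).

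**Figure D3:**
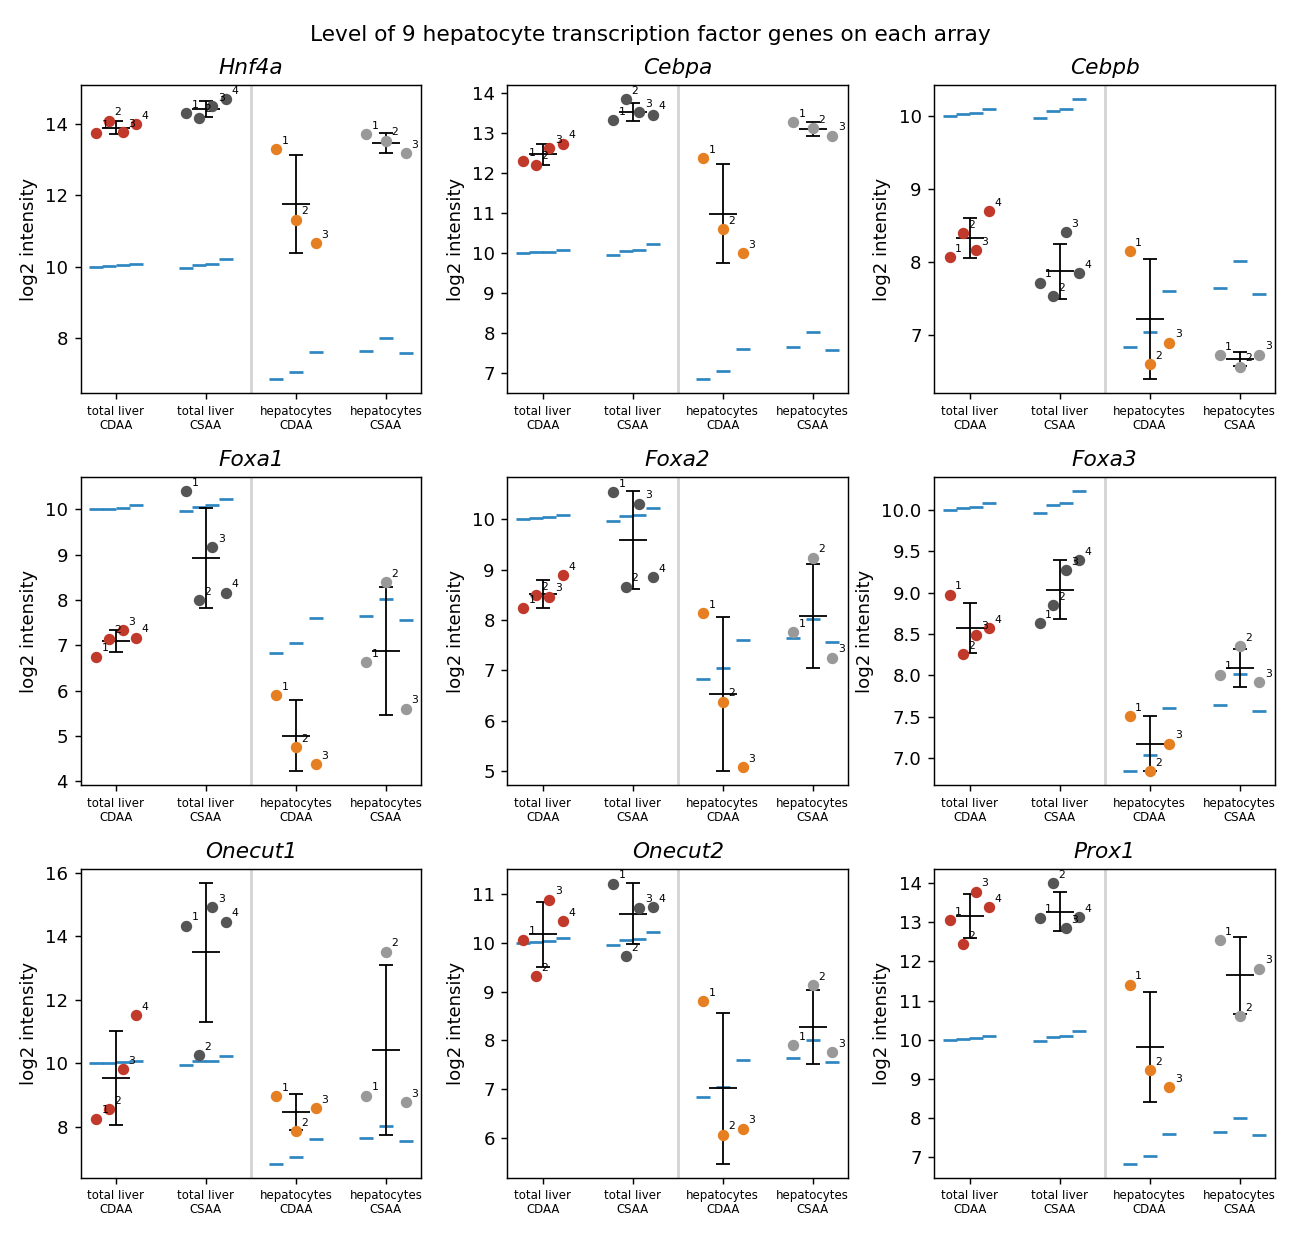
Log2 intensity of each factor on each of the 14 arrays, numbered within their group, with the group mean and SD in black; blue marks are the 95th percentile of the negative controls on the same array, and levels are not comparable across the vertical line between the tissues. Hnf4a, Cebpa and Prox1 lay above the blue marks on all arrays, and Cebpb and Foxa3 under them on all total liver arrays.

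The arrays of a group differed from each other in a way that the factors shared. On hepatocyte CDAA array 1 the median difference of the 9 factors from the CSAA mean was -0.24, on CDAA array 2 it was -2.16 and on CDAA array 3 it was -2.50. Arrays 2 and 3 lay under every CSAA array for 8 of 9 factors each, and array 1 for 2 of 9, Cebpa and Foxa3. How many of all tested probe sets did so on a single array was not counted, so these counts do not set the factors apart. Macrophage markers were high on all 3 arrays, at 6.14, 7.55 and 7.14 above the CSAA mean, and stellate cell markers at 3.21, 4.69 and 4.37. Hepatocyte function genes stood at -0.54, -0.67 and -0.93, though the brightest of them lay near the top of the scale, which may limit their changes. The median intensity of the positive control probe sets was 8.77, 8.28 and 8.13 on the CDAA arrays, against 8.77, 8.68 and 8.53 on the CSAA arrays. The part of these measures in the split was not tested. In total liver the median difference of the factors was -0.68, -1.09, -0.66 and -0.46 on the 4 CDAA arrays.

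**Figure D4:**
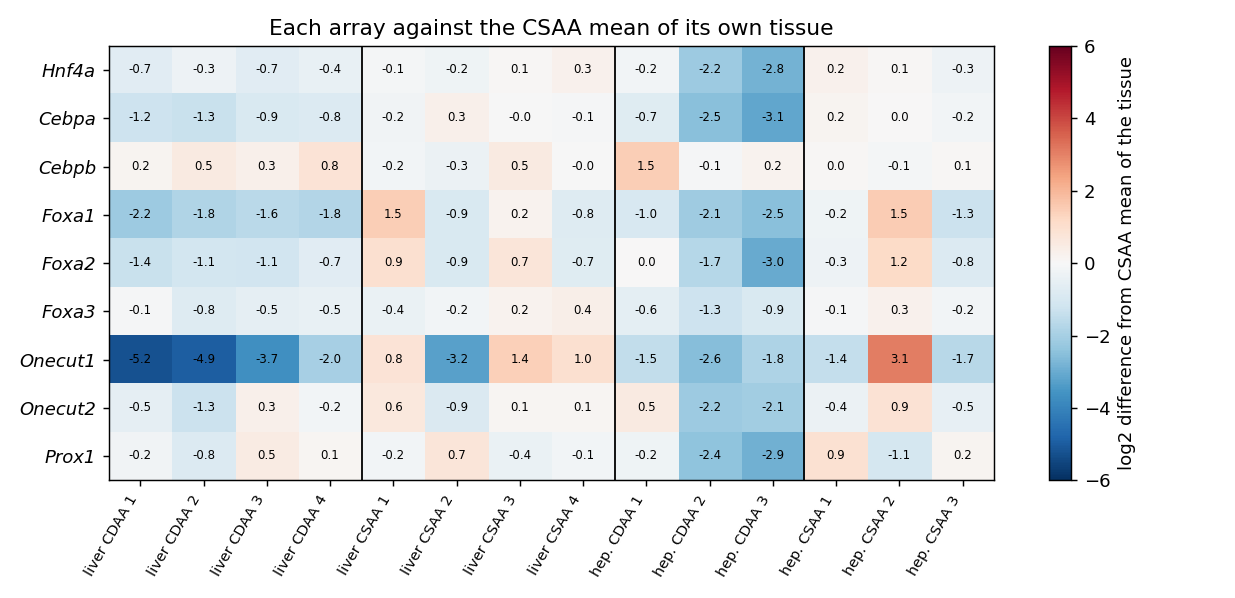
Difference of each array, in log2 units, from the CSAA mean of its own tissue, for each factor (rows) and array (columns); blue is lower and red is higher. Hepatocyte CDAA arrays 2 and 3 were low for all factors but Cebpb, and Onecut1 was low on the total liver CDAA arrays and on CSAA array 2.

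With the mean of each tissue subtracted, Hnf4a and Cebpa had the highest correlation among the pairs of factors over the 14 arrays (Pearson r = 0.933). Foxa1 and Foxa2 followed at 0.913, and Foxa2 and Onecut2 correlated at 0.835. Onecut1 correlated at 0.819 with Foxa1 and at 0.024 with Prox1. Cebpb correlated at -0.25 to 0.21 with the others. These values describe arrays that share diets and preparations, and they carry no test. Over 7538 named genes above background in at least 1 group, the profiles most like that of Hnf4a were Gosr1 (0.985) and Pzp (0.979), and those most like Cebpa were Mthfd1 (0.988) and Kcnn2 (0.982). Foxa1 was closest to Ptch1 (0.946) and Foxq1 (0.915), and Foxa2 to Ptch1 (0.921) and Hhex (0.920). Onecut1 was closest to Plcxd2 (0.940) and E2f8 (0.927), Onecut2 to Cpox (0.936) and Bcl9l (0.928), and Prox1 to Tmem144 (0.946) and Fbxo21 (0.939). For Foxa3 the nearest were Ulk1 (0.914) and Fgg (0.913), and for Cebpb they were Naa15 (0.892) and Slc39a4 (0.879).

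Of 10 further members of the same factor families 7 were measured. In each tissue 1 of 7 rose and 0 fell, with a median of 0.01 in total liver and 0.04 in hepatocytes. Over all tested probe sets 6.73% rose in total liver and 11.0% in hepatocytes. In total liver this was Ddit3, the C/EBP homologous protein of the stress response, at 11.98, 11.92, 9.49 and 10.37 on CDAA and 8.39, 8.81, 8.25 and 9.29 on CSAA. It rose by 2.26 ± 0.44 (adjusted p = 0.0031), of which 0.86 remained with the CSAA group set at background. In hepatocytes it was Cebpd, the acute phase relative of Cebpb, at 10.58, 9.38 and 9.05 on CDAA and 7.14, 5.73 and 6.56 on CSAA. It rose by 3.19 ± 0.47 (adjusted p = 0.000136), or at least 1.93 with the CSAA group set at background. The differences of these genes in the other tissue were 1.19 ± 0.41 for Cebpd in total liver (adjusted p = 0.0804) and 1.39 ± 0.51 for Ddit3 in hepatocytes (adjusted p = 0.0711).

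Among 19 measured other transcription factors of the liver, 1 fell in total liver and 5 fell in hepatocytes, and 0 rose in either by limma (2 at an unadjusted p under 0.05 in total liver, 0 in hepatocytes). Over all tested probe sets 3.54% fell in total liver, close to 1 of 19, and 7.74% fell in hepatocytes. The medians were -0.55 in total liver and -0.999 in hepatocytes, against -0.09 and -0.13 over all tested probe sets. Mlxipl, which encodes the carbohydrate response factor ChREBP, fell in both. Its levels were 12.75, 13.11, 13.23 and 13.19 on CDAA and 14.18, 14.33, 14.01 and 14.44 on CSAA in total liver (-1.17 ± 0.29, adjusted p = 0.0154). In hepatocytes they were 9.88, 8.58 and 8.55 on CDAA and 12.47, 12.61 and 11.68 on CSAA (-3.25 ± 0.33, adjusted p = 3.19e-06). Mlxipl was the 1 factor of this list whose diet effects differed between the tissues, by 2.08 ± 0.44 (adjusted p = 0.0148). The others that fell in hepatocytes were Ppara, the fatty acid receptor (-2.09 ± 0.52), Nr5a2, a bile acid regulator (-1.30 ± 0.34), Creb3l3 (-1.14 ± 0.32) and, named after its value was seen, Klf15 (-1.64 ± 0.47).

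Of 13 measured textbook targets of HNF4A, 3 fell and 1 rose in total liver and 6 fell and 1 rose in hepatocytes. Among all tested probe sets 3.54% fell and 6.73% rose in total liver, and 7.74% fell and 11.0% rose in hepatocytes. The medians of the list were -0.33 in total liver and -0.92 in hepatocytes, against -0.09 and -0.13 over all tested probe sets. Slc10a1, the bile acid importer, fell in both, to 14.80, 15.31, 16.39 and 16.01 on CDAA, against 17.05, 17.20, 17.09 and 17.19 on CSAA in total liver. The changes were -1.50 ± 0.31 there (adjusted p = 0.00447) and -2.54 ± 0.36 in hepatocytes (adjusted p = 8.02e-05). Cyp8b1, the sterol hydroxylase of cholic acid synthesis, also fell in both, with changes of -2.97 ± 0.63 in total liver and -3.87 ± 0.72 in hepatocytes. Mttp, which loads lipoproteins with fat, fell by 0.81 ± 0.24 in total liver and fell by 1.96 ± 0.27 in hepatocytes, and F12, a clotting factor, fell by 2.05 ± 0.37 in hepatocytes. Apoa4, an apolipoprotein of fat transport, rose by 4.12 ± 0.24 in total liver and by 2.44 ± 0.27 in hepatocytes. For Apoa4 and F12 the diet effects of the tissues differed, by 1.68 (adjusted p = 0.0180) and 1.98 (adjusted p = 0.0431), total liver minus hepatocytes.

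Of 12 textbook targets of C/EBP factors, 1 rose and 1 fell in total liver and 2 rose and 2 fell in hepatocytes, with medians of 0.03 and -0.37. Of all tested probe sets 10.3% were called in total liver and 18.7% in hepatocytes. G6pc, the glucose-6-phosphatase of glucose release, fell by 2.31 ± 0.55 in total liver and fell by 4.09 ± 0.63 in hepatocytes. It is also a target of FOXA and ONECUT1, and among the 8 FOXA targets it was the 1 call in each tissue. Pparg, a fat storage receptor whose CSAA groups were under background, had fitted differences of 1.75 ± 0.35 in total liver and 2.58 ± 0.40 in hepatocytes, of which 0.49 remained with the hepatocyte CSAA group set at background and none in total liver. Saa1, an acute phase protein, rose by 2.64 ± 0.57 in hepatocytes, and Cps1, the first enzyme of the urea cycle, fell by 1.35 ± 0.27. Of 5 measured genes linked to ONECUT1 or PROX1, of which Hnf4a and Foxa2 are themselves among the 9 factors, 1 rose and 2 fell in total liver and 1 rose and 3 fell in hepatocytes. Cyp7a1, which catalyses the limiting step from cholesterol to bile acids, rose in each tissue. Its change was 2.18 ± 0.66 in total liver (adjusted p = 0.0467) and 2.30 ± 0.76 in hepatocytes (adjusted p = 0.0460), with overlapping groups. Of 13 fetal and progenitor genes, 0 passed in total liver by limma (3 at an unadjusted p under 0.05) and 1 in hepatocytes, Cd24a, which was under background on all arrays. The lists share genes, and they were chosen with earlier results of these data known.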

How the data were processed

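RNA of 8 total liver and 6 hepatocyte samples was hybridized to Clariom S mouse arrays, 1 per sample, with labelling by the WT PLUS kit per the labels' protocols. The deposited log2 intensities were made by the authors with RMA, per the submitters' processing notes; its version is not given in the sources used here. RMA corrects background, normalizes quantiles and summarises probes, which removes any change in total RNA per array.

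Of 28846 probe sets, 6640 controls were left out, 5222 of them negative controls, and 22206 were tested without a filter on low values. Symbols came from the platform annotation: 19572 tested probe sets had 1 symbol and 2634 had none. The brightest probe set stood for a gene with several, and each of the 9 factors had 1.

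Groups followed the sample titles. limma 3.58.1 in R 4.3.3 fitted 1 mean per group to all 14 arrays (10 residual and 5.11 prior degrees of freedom) and gave CDAA minus CSAA in total liver, the same in hepatocytes, and the difference of these, total liver minus hepatocytes. Tests were two-sided and adjusted by Benjamini-Hochberg over all tested probe sets, with a threshold of 0.05. The code was tested on simulated data. Figures were drawn with matplotlib 3.10.9.

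The 9 factors, the gene lists and the rules were chosen with earlier results of these data known. Named from each list were up to 4 genes with the smallest p per diet contrast and, for each factor, the 2 genes of most similar profile. The alternatives were trend and robust moderation, a spread from 1 tissue only, a filter on the dimmest 30% of probe sets, array weights, quantile normalization of all arrays together, arrays centred on their medians, a replicate block, averaged probe sets per gene, and the removal of each array in turn. Centring on hepatocyte function genes was planned under a level of 16, where 0 genes lay, and was run under 18 with 6 genes (Tat, Cps1, F2, Hgd, Tdo2 and Arg1); this and leaving out both hepatocyte CDAA arrays 2 and 3 were chosen after the data were seen. Residuals of equally numbered arrays correlated at 0.02, -0.01, -0.13 and -0.02 in total liver and 0.35, -0.21 and 0.26 in hepatocytes. So few values cannot show whether equal numbers pair arrays, and the main fit paired none. Motifs were searched on both strands of RefSeq promoter windows.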

Additional observations from a re-analysis of the deposited data

Results flagged for a closer look

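In the total liver CSAA group, Onecut1 was far lower on array 2 than on the other 3 arrays. Its level there was 10.25, against 14.34, 14.93 and 14.46 on CSAA arrays 1, 3 and 4, and the gap to the nearest of them was 0.874 of the group's whole range, above Dixon's critical value of 0.829 for 4 samples. The CDAA arrays had 8.25, 8.56, 9.82 and 11.52. Of 18 total liver groups tested in this way, 9 factors on each diet, 1 was flagged, and chance flags about 1 in 20. Groups of 3 hepatocyte arrays were not tested.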

How the results depend on the processing

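In total liver 1 factor passed the threshold as reported. The count was 4 with the spread of 1 tissue alone, 4 with array weights, 3 with joint quantile normalization, 3 with centring on array medians, 2 without the dimmest 30% of probe sets and 2 with the replicate block (Onecut1 and Foxa1, adjusted p = 0.0160 and 0.0442), and 0 to 2 without each array. In hepatocytes it was 4 as reported, 0 with the spread of 1 tissue alone, 2 with centring on hepatocyte function genes (Cebpa lower and Cebpb higher), 7 with array weights, 1 without both CDAA arrays 2 and 3, and 1 to 7 without each array; the replicate block gave 5, with Foxa1 added (adjusted p = 0.0467). For the difference between tissues it was 0 as reported and with the block, 3 with array weights, and 0 to 3 without each array. With the spread of 1 tissue alone 4613 probe sets passed in total liver and 1883 in hepatocytes, against 2279 and 4158 as reported; array weights gave 4992 and 6806. Centring on hepatocyte function genes gave 16788 in hepatocytes, and without total liver CDAA array 1 there were 1510 in total liver. Leaving out each array in turn gave 1510 to 1911 in total liver and 3039 to 5811 in hepatocytes. For the difference between tissues 570 passed as reported, 2725 with array weights, 5084 with centring on hepatocyte function genes and 2265 without hepatocyte CDAA array 1. The cause of these shifts was not tested.

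Of the probe sets called, 65.6% were higher in total liver as reported, 43.4% with centring on array medians and 89.2% with centring on hepatocyte function genes; in hepatocytes the shares were 58.7%, 39.8% and 98.6%. These scalings moved the median of all probe sets to -0.23 and 0.21 in total liver and to -0.29 and 1.05 in hepatocytes.

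Some fitted differences changed sign. In total liver that of Prox1 was 0.19 with centring on hepatocyte function genes, 0.048 with array weights and -0.32 to 0.13 without each array. In hepatocytes Foxa3 was 0.26 with that centring, and Foxa2 and Onecut2 were 0.046 and 0.53 without both CDAA arrays 2 and 3. The difference between tissues turned without both of those arrays for Hnf4a (-0.34), Cebpa (-0.33), Foxa1 (-0.85), Foxa2 (-1.11) and Onecut2 (-0.95), with centring on hepatocyte function genes for Foxa1 (-0.83), Foxa2 (-0.38), Foxa3 (-0.41) and Onecut2 (-0.040), and with array weights for Cebpb (0.40). Without each array it ranged from -0.40 to 0.37 for Cebpb, -0.72 to 0.67 for Foxa1 and -0.24 to 1.29 for Foxa2. Signal over background limits Cebpb, Foxa1, Foxa2 and Foxa3 most.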

Other observations

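Among the CSAA arrays of each tissue, array 2 was an extreme for 5 developmental factors and the opposite extreme for Prox1. This was seen after the values were known and not tested, and the genes were picked because they showed it. How many of all tested probe sets did so was not counted. Equal numbers are not known to pair arrays of the tissues. In total liver, CSAA array 2 had the lowest level of the 4 CSAA arrays for Onecut1, Onecut2, Foxa1, Foxa2 and Hhex, a homeobox factor of liver development. Hhex had 13.70, 11.74, 13.59 and 12.52 on the CSAA arrays. Prox1 was highest on array 2, with 13.12, 13.99, 12.85 and 13.12. Bcl6, a transcriptional repressor, had 9.48, 12.75, 7.94 and 7.44 there, also highest on array 2. Of these total liver CSAA values, Foxa1 and Bcl6 were above background on 1 array each and Foxa2 on 2. In hepatocytes, CSAA array 2 had the highest level of the 3 CSAA arrays for these 5 factors, with 8.89, 11.70 and 8.98 for Hhex. It had the lowest for Prox1, with 12.55, 10.60 and 11.81, and for Bcl6, with 10.37, 6.81 and 9.57. Of these hepatocyte CSAA values, Foxa1 was above background on 1 array, and Foxa2 and Bcl6 on 2 each. The Bcl6 value on array 2 was under background.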
